A study of Mus musculus with 8 samples.

Results

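The cells described here are the astrocytes of the mouse striatum, taken as every cell that the deposited annotation calls Astro. There were 857 of them among 14690 annotated striatal cells, in a series that holds 23687 annotated cells of the striatum and the prefrontal cortex. The striatal data are 4 single-cell RNA sequencing libraries made from papain-dissociated tissue on the 10x Chromium droplet platform, which counts unique molecular identifiers (UMIs) near the 3′ ends of transcripts. The WT libraries held 258 Astro cells in replicate 1 and 214 in replicate 2, and the Setd1a+/- libraries held 354 in replicate 1 and 31 in replicate 2. All mice were untreated males, labelled as C57BL/6N and 8 to 10 weeks old, and the tissue of 2 mice was pooled in each library, so that no value belongs to 1 mouse. The methods give an older age, and age entered no test. The study's results text names the tissue as dorsal and ventral striatum, where the labels name the nucleus accumbens. The Setd1a+/- mice carried 1 copy of a small frameshift deletion made with Cas9 in zygotes of the BDF1 cross, in the exon before those that encode the SET domain. A single selected mutation founded the line, and the WT mice were littermates. Setd1a encodes a methyltransferase of histone H3 lysine 4 (H3K4), and the comparison of genotypes asks how the loss of 1 copy bears on transcription in each cell type.

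Astrocytes take up glutamate and GABA released at synapses, buffer potassium and water, are coupled to one another by gap junctions, supply lactate and lipoprotein-bound lipid to neurons and end on blood vessels. In the striatum they surround medium spiny neurons (MSNs), the GABAergic projection neurons of this region. Ependymal cells, which line the ventricle that the striatum borders, are glia with motile cilia and share several genes with astrocytes.

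Levels are given as CPM, the UMIs of a gene per 1e6 of all UMIs summed over the Astro cells of a library, and sets of 4 values follow the order WT replicate 1, WT replicate 2, Setd1a+/- replicate 1, Setd1a+/- replicate 2. The Astro sums held 582425, 490677, 887706 and 94178 UMIs, so that 1 UMI was worth 1.72, 2.04, 1.13 and 10.6 CPM, and a gene at 0 could lie at up to 5.15, 6.11, 3.38 and 31.9 CPM (3 UMIs, for counting error only). The median Astro cell had 1863, 2014.5, 1995.5 and 2322 UMIs and 938.5, 989, 954 and 1089 detected genes. Setd1a+/- replicate 2 stood apart by its 31 cells, its mitochondrial share of 6.38% of the UMIs of the median cell, against 4.54 to 4.63% in the other 3 libraries, and its make-up, described below. No Astro barcode was shared between libraries. Setd1a (chr7:127776670-127800122, GRCm38) had 8, 1, 12 and 1 UMIs in Astro cells, too few to compare, and over all annotated striatal cells it was at 13.4, 15.2, 9.16 and 12.5 CPM. The deletion lies outside the 3′ end that is counted, so these counts do not check the genotype labels.

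In the library sums the astrocyte name held. Cell by cell, 853 Astro cells held UMIs of at least 2 of 12 astrocyte markers. UMIs of 2 or more genes of another class were found in 82, 90, 126 and 20 Astro cells. This left 176, 124, 228 and 11 cells without them. At least 2 of 9 MSN markers were held by 183 Astro cells. The source of these UMIs was not tested. Of 12 astrocyte markers, 11 had their highest mean level of the 10 annotated striatal types in Astro, and for these 11 every Astro library was above every library of every other type. Among all 2068 genes of at least 50 CPM in every Astro library, 18.6% had their highest mean in Astro. The median ratio of the Astro mean to the mean of the highest other type was 13.4 for the 12 markers and 0.558 for the 2068 genes. Since the types were made by clustering cells on the same genes, these levels are a description with no test. Aldoc, the aldolase form of astrocyte glycolysis, stood at 7328, 9314, 6551 and 4279 CPM, and at 474 CPM on average in oligodendrocyte progenitors (OPC), the next type. Gja1, which encodes the gap junction protein connexin 43, stood at 1240, 1276, 1121 and 987 CPM against 64.5 CPM in endothelial and other vascular cells (Endo). Slc1a3, the glutamate transporter GLAST, stood at 2199, 2132, 2025 and 1179 CPM against 229 CPM in OPC. These 3 markers agreed in setting the Astro cells apart in all 4 libraries, and each was lowest in Setd1a+/- replicate 2. Without the cells that hold ependymal markers, described below, Gja1 was at 1371, 1343, 1273 and 1279 CPM and no longer lowest there, while Aldoc stayed lowest. S100b, often used as an astrocyte marker, was the exception, at 0.195 times the level of newly formed oligodendrocytes (NFO).

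**Figure D1:**
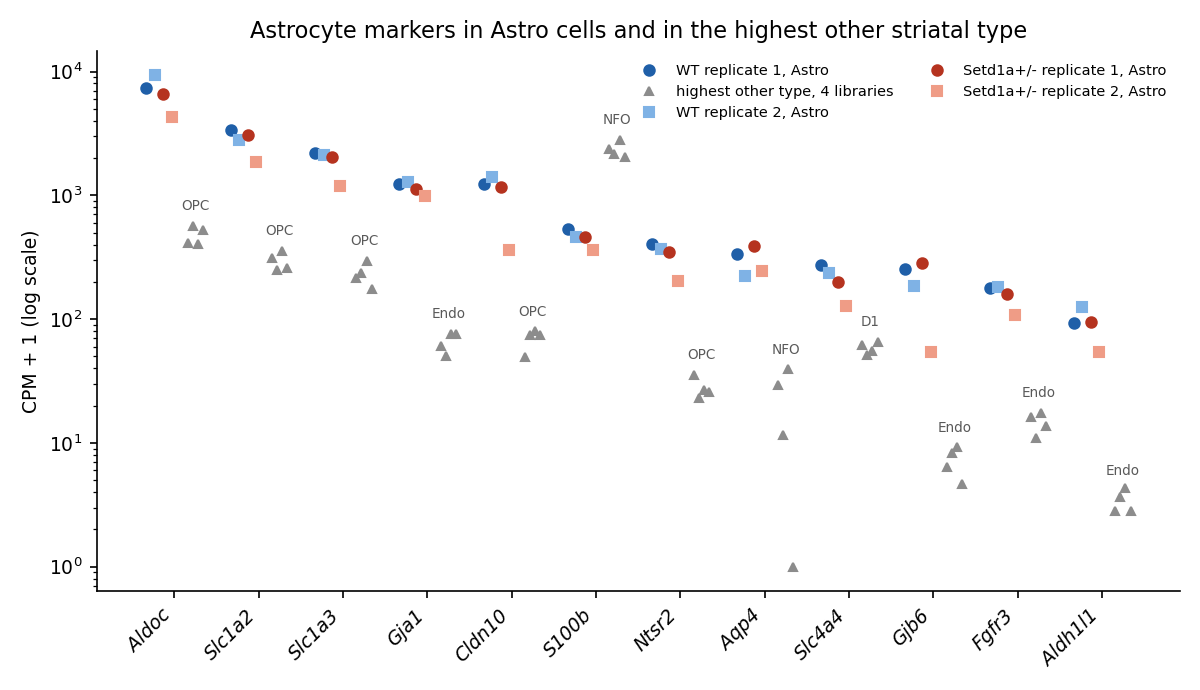
Levels of the 12 astrocyte markers in Astro cells of each library (circles and squares) and in the libraries of the other striatal type with the highest mean (triangles, type named above them), as CPM + 1 on a log axis. All markers but S100b lie above the triangles in every library, and Setd1a+/- replicate 2 is the lowest Astro library for most of them.

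The 30 genes with the highest ratio of the Astro mean to the next type, among genes of at least 50 CPM in every Astro library, had a median ratio of 21.7. They included enzymes and transporters of astrocytes such as Cyp4f15 (a cytochrome P450, ratio 65.3), Slc39a12 (a zinc transporter, 41.3), Aldh1l1 (the folate enzyme 10-formyltetrahydrofolate dehydrogenase, 38.0), Acsbg1 (a long-chain acyl-CoA synthetase, 28.3), Entpd2 (an enzyme that hydrolyses extracellular ATP, 21.8) and Prodh (proline dehydrogenase, 13.6). The same set held Gjb6 (connexin 30, 31.5), Mlc1 (a membrane protein of astrocyte end-feet, 17.4), Aqp4 (the water channel aquaporin 4, 15.4) and Gfap (the intermediate filament protein of astrocytes, 20.4). It also held genes of motile cilia: Ccdc153 led it with a ratio of 384, and Dynlrb2 (55.1), Tmem212 (47.0), Cfap126 (28.6) and Rsph1 (16.9) followed. These cilium genes came from few cells, which are described next, and without those cells 393 of 1991 genes (19.7%) had their highest mean in Astro.

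Of the 857 Astro cells, 62 held UMIs of at least 2 of 4 ependymal markers, namely Foxj1 (the transcription factor of motile cilia), Ccdc153, Tmem212 and Rarres2 (the secreted protein chemerin). The split was made after the levels were seen. It counts markers and assigns no cell type, and the annotation holds no ependymal type. Of these cells 48 held all 4 markers, 11 held 3 and 3 held 2, while 169 Astro cells held 1 marker and 626 held 0. Among the 13833 annotated striatal cells of the other types, 4 cells (0.0289%) passed the same rule, although the median depth of the cells of those types, 2681 UMIs, was above the Astro median of 1974. The 62 are called the cells with ependymal markers from here on, and the cells with 1 marker stay among the other Astro cells. The 12 astrocyte markers made up 23.7 of 10000 UMIs of the median cell with all 4 ependymal markers, 26.8 with 3 and 98.98 with 2, against 209 with 1 and 208 with 0.

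They made up 12, 10, 31 and 9 cells, or 4.65, 4.67, 8.76 and 29.0% of the Astro cells. They were deep, with medians of 8339.5, 2939.5, 6619 and 3891 UMIs against 1844.5, 1996.5, 1965 and 2248.5 for the other Astro cells, and so held 16.8, 7.76, 24.2 and 43.6% of the Astro UMIs. When every cell was thinned to 1000 UMIs, 10, 9, 29 and 9 cells still passed (3.88, 4.21, 8.19 and 29.0% of the cells kept). Their part of the Astro sum was thus larger in both Setd1a+/- libraries than in both WT libraries, and the comparison of genotypes is given with and without them.

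**Figure D2:**
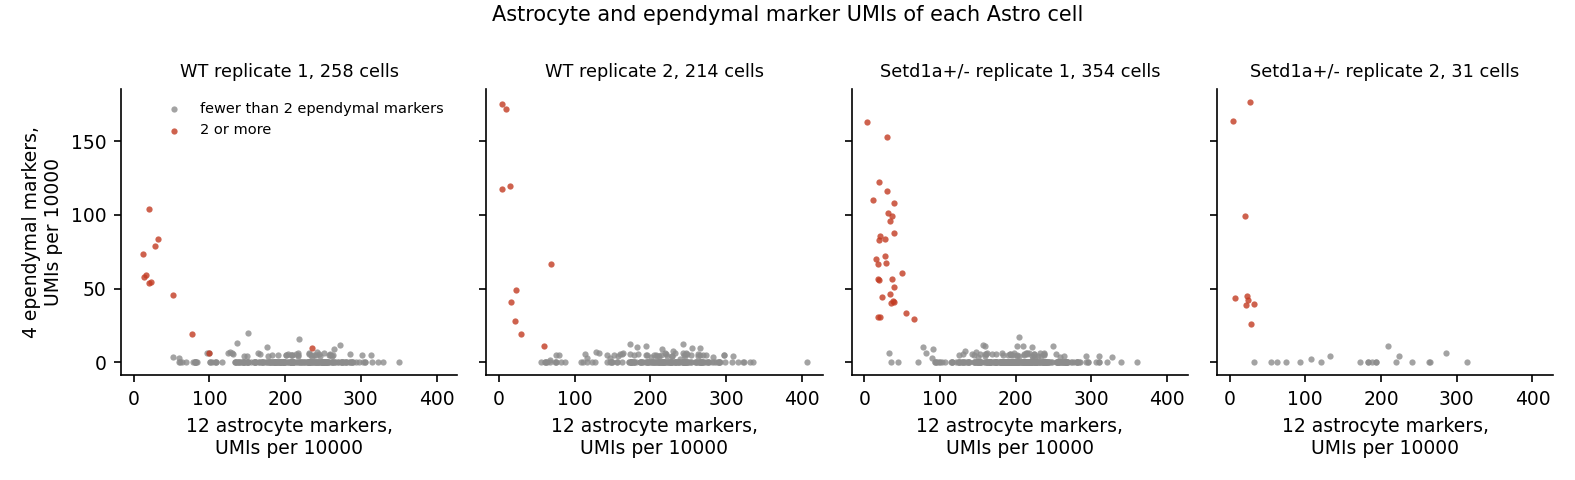
Each point is 1 Astro cell, with the UMIs of the 12 astrocyte markers per 10000 UMIs on the horizontal axis and those of the 4 ependymal markers on the vertical axis, in 1 panel per library. Cells with 2 or more ependymal markers (red; 12, 10, 31 and 9 cells) lie mostly at the left, with few astrocyte marker UMIs, and most of the other cells lie near 0 on the vertical axis.

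The cells with ependymal markers held other cilium genes, which the split had not used. Rsph1, a radial spoke protein, was at 1020, 945, 778 and 707 CPM in them and at 4.81 CPM in the pooled other Astro cells. Dynlrb2, a dynein light chain, was at 949, 919, 811 and 951 CPM against 7.21 CPM, and Cd24a, a surface protein of ependymal cells and neuroblasts, at 969, 972, 988 and 1121 CPM against 4.21 CPM. Each of these 3 genes was thus more than 50 times above that pooled level in all 4 libraries. They were picked after their values were seen, for a high level in these cells of every library and a high ratio. Their levels are therefore a description with no test. Nnat (neuronatin) was at 5170 CPM pooled against 275 CPM, Hsp90aa1 (the inducible HSP90) at 6436 against 477 CPM, and Sox9 and Sox2, transcription factors of glia and progenitors, at 899 against 253 and 677 against 192 CPM. Among the 2068 genes of at least 50 CPM, 16.9% were more than 2 times higher in these cells.

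The astrocyte genes differed among themselves across this division. Aldoc was at 220 CPM in the cells with ependymal markers and 9000 CPM in the others, Cldn10 at 20.4 against 1480 CPM, Gjb6 at 2.55 against 296 CPM, and Slc7a10, the transporter of D-serine and small neutral amino acids, had no UMI there against 351 CPM. Aqp4 (419 against 305 CPM), S100b (511 against 471 CPM) and Mlc1 (551 against 748 CPM) differed by less than 1.5 times, and Gja1 was at 610 against 1321 CPM. The choroid plexus gene Ttr had 2 UMIs in all Astro cells together, and Kl, which marks the same epithelium, had 1.

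Markers of most other cell types were lower in the Astro sums than in free RNA. Summed over 9 MSN markers, Astro cells had 697, 1045, 443 and 1189 CPM, against 5711, 6923, 5451 and 5753 CPM in barcodes of 10 to 100 UMIs, which hold free RNA and no cell. Summed over 8 oligodendrocyte markers they had 441, 300, 313 and 117 CPM against 3431, 2892, 6071 and 1783 CPM in those barcodes, and over 7 microglial markers 89.3, 97.8, 128 and 31.9 CPM. The MSN sum was higher in replicate 2 than in replicate 1 of each genotype. Summed over 9 markers of neural stem cells and neuroblasts they had 251, 143, 318 and 680 CPM, above the 75.3, 90.7, 152 and 112 CPM of the cell-free barcodes in every library. This sum lay mostly in Cd24a (98, 38, 215 and 46 UMIs) and Sox11 (38, 24, 43 and 14 UMIs), and the other 7 genes, with Dcx, Dlx1, Dlx2, Top2a and Mki67 among them, had 0 to 10 UMIs in each library. Without the cells with ependymal markers the sum was 86.7, 68.5, 65.4 and 263 CPM, above the cell-free level in WT replicate 1 and Setd1a+/- replicate 2 alone. The sum over 5 OPC markers, at 48.1, 40.8, 74.3 and 31.9 CPM, also lay above the cell-free 37.9, 32.3, 58.1 and 36.6 CPM in all libraries but Setd1a+/- replicate 2. Over 7 endothelial markers they had 209, 190, 267 and 414 CPM, and 111, 144, 80.2 and 75.3 CPM without those cells. Over 5 mural markers the sums were 118, 116, 214 and 74.3 CPM and over 6 interneuron markers 56.7, 106, 87.9 and 31.9 CPM. Chat had no UMI in any library, Kcnj8 had 2 UMIs in all and Pecam1 had 5.

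Genes of the astrocyte's main tasks were then followed by list, with all the genes of a list of at least 50 CPM in every Astro library compared with the highest other type, beside the 18.6% of all such genes that were highest in Astro. For uptake and metabolism of glutamate and GABA, 11 of 11 were highest in Astro. Slc1a2, the main glutamate transporter (GLT-1), was at 3348, 2810, 3075 and 1858 CPM, 9.45 times the OPC mean, and Slc6a11, the GABA transporter GAT-3, was at 175, 145, 144 and 149 CPM, 4.19 times the OPC mean. All their Astro libraries lay above all others. Glul, the glutamine synthetase that turns glutamate into glutamine, was at 4237, 4233, 4001 and 2060 CPM. This was 1.25 times the level of oligodendrocytes (Oligo), whose libraries it overlapped. The ratios of the lists are over all Astro cells, and Glul in the cells with ependymal markers was at 0.0571 times its level in the others.

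Of the genes for coupling, potassium and water, 11 of 12 were highest in Astro, with a median ratio of 4.35. Atp1b2, a sodium pump subunit, was at 759, 878, 653 and 457 CPM, 3.81 times OPC. Kcnj10, which encodes the potassium channel Kir4.1, was the 1 gene not highest in Astro, at 70.4, 63.2, 103 and 53.1 CPM, against 101 CPM in NFO. Kcnj16, its partner subunit, was at 30.9, 16.3, 28.2 and 42.5 CPM. Fxyd1, a regulator of the sodium pump, was at 697, 825, 743 and 457 CPM, 9.18 times Endo, and Dtna, a protein of the dystrophin complex, was 4.90 times D2 MSNs.

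Of the lipoprotein and sterol genes, 10 of 15 were highest in Astro. Apoe, the main lipoprotein of the brain, was at 9756, 13119, 8070 and 3525 CPM, 2.21 times the mean of OPC, and Clu (clusterin) at 6025, 6962, 5498 and 2506 CPM, 7.75 times OPC. Dbi, the diazepam-binding inhibitor and acyl-CoA carrier, was lower in Astro than in OPC, at 0.825 times. Its level in the cells with ependymal markers was 3.82 times that in the other Astro cells. Among the sterol enzymes Msmo1 was 2.13 times the next type (424, 483, 382 and 149 CPM), and Hmgcs1 (112, 163, 112 and 74.3 CPM) was below interneurons.

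Of the genes of glycolysis, glycogen and lactate, 5 of 17 were highest in Astro and the median ratio was 0.730. Beside Aldoc, Pygb, the glycogen phosphorylase of brain, was at 203, 216, 247 and 244 CPM, 8.76 times the next type, and Ppp1r3c, which targets a phosphatase to glycogen, was at 13.3 times. Ldhb was at 1928, 2497, 1813 and 1540 CPM, 1.40 times D2 MSNs, whereas Ldha, Pkm, Aldoa and Tpi1 lay at 0.385, 0.385, 0.484 and 0.527 times their highest type, each of them a neuronal one. Of the 15 secreted and synapse-related proteins 7 were highest in Astro, with Htra1, a secreted protease, at 410, 365, 406 and 149 CPM (7.10 times OPC) and Pla2g7, a phospholipase that inactivates platelet-activating factor, at 678, 958, 541 and 276 CPM (5.18 times OPC). Cst3, the protease inhibitor cystatin C, was at 22866, 30525, 21548 and 11457 CPM and higher still in microglia, at 65551 CPM.

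Metallothioneins, small metal-binding proteins, were all highest in Astro. Mt1 was at 10485, 12593, 10827 and 8441 CPM, Mt2 at 3750, 3766, 3769 and 2591 CPM and Mt3 at 5494, 4151, 5803 and 3515 CPM, 7.27, 7.31 and 6.35 times the next type. Their levels in the cells with ependymal markers (9037, 2681 and 6178 CPM) were within 1.5 times of those in the other Astro cells.

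Among receptors, 6 of 9 were highest in Astro. Ntsr2, a neurotensin receptor, was at 407, 365, 349 and 202 CPM, 12.4 times OPC, F3, the receptor of clotting factor VII, at 876, 1202, 749 and 382 CPM, 5.40 times OPC, and Gabrb1, a GABA-A receptor subunit, at 244, 214, 243 and 223 CPM, 1.55 times interneurons. Grm3, the glutamate receptor of adult astrocytes, was at 146, 139, 128 and 53.1 CPM, while Grm5 was at 18.9, 51.0, 9.01 and 106 CPM, under the 236 CPM of the cell-free barcodes.

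Of the transcription factors, 8 of 18 were highest in Astro. Sox9 was at 318, 279, 453 and 510 CPM, 4.10 times NB, the type of neural stem cells and neuroblasts. Id4 was at 263, 230, 394 and 563 CPM (4.26 times D2) and Rorb at 254, 224, 214 and 138 CPM (6.82 times OPC). Dbx2 was at 185, 155, 155 and 74.3 CPM (4.27 times OPC) and Lhx2 at 91.0, 59.1, 74.3 and 84.9 CPM (4.26 times NB). Sox9 and Id4 were higher in both Setd1a+/- libraries than in both WT libraries, as were 22.9% of all 7009 genes tested. Both were higher in the cells with ependymal markers (899 against 253 CPM and 669 against 245 CPM). Rorb and Dbx2 were lowest in Setd1a+/- replicate 2 and lower in those cells (33.2 against 269 CPM and 2.55 against 197 CPM). The part of those cells in the library levels of these genes was not tested. Of the Notch, FGF and Hedgehog genes 3 of 6 were highest in Astro, and Fgfr3 was at 177, 181, 159 and 106 CPM, 11.5 times Endo. Of the H3K4 genes 3 reached 50 CPM in every library and 0 were highest in Astro, with Kmt2c, another H3K4 methyltransferase, at 101, 59.1, 76.6 and 95.6 CPM.

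Among genes that mark regional or GFAP-rich astrocytes, 8 of 12 were highest in Astro. Among them were Fam107a (637, 512, 547 and 308 CPM, 5.21 times Endo) and Thrsp (216, 251, 253 and 106 CPM, 2.08 times NB). Genes of reactive astrocytes were mostly low. Of 33, 22 had a mean under 10 CPM and 8 had no UMI. Gfap was at 67.0, 55.0, 60.8 and 84.9 CPM, 20.4 times Oligo, and Vim (vimentin) was at 96.1, 28.5, 121 and 149 CPM but at 37.3 CPM without the cells with ependymal markers. C3, a complement factor, was at 12.0, 0, 13.5 and 95.6 CPM, but it had no UMI in the Astro cells with fewer than 2 ependymal markers. Of the early response and heat shock genes, 6 of 36 reached 50 CPM in every library and 0 of these were highest in Astro. Fos was at 46.4, 34.6, 96.9 and 84.9 CPM against a mean of 4617 CPM in Endo and 237 CPM in cell-free barcodes, and Junb at 22.3, 51.0, 29.3 and 95.6 CPM against 1847 and 245 CPM. Both lay below the cell-free level in every Astro library.

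**Figure D3:**
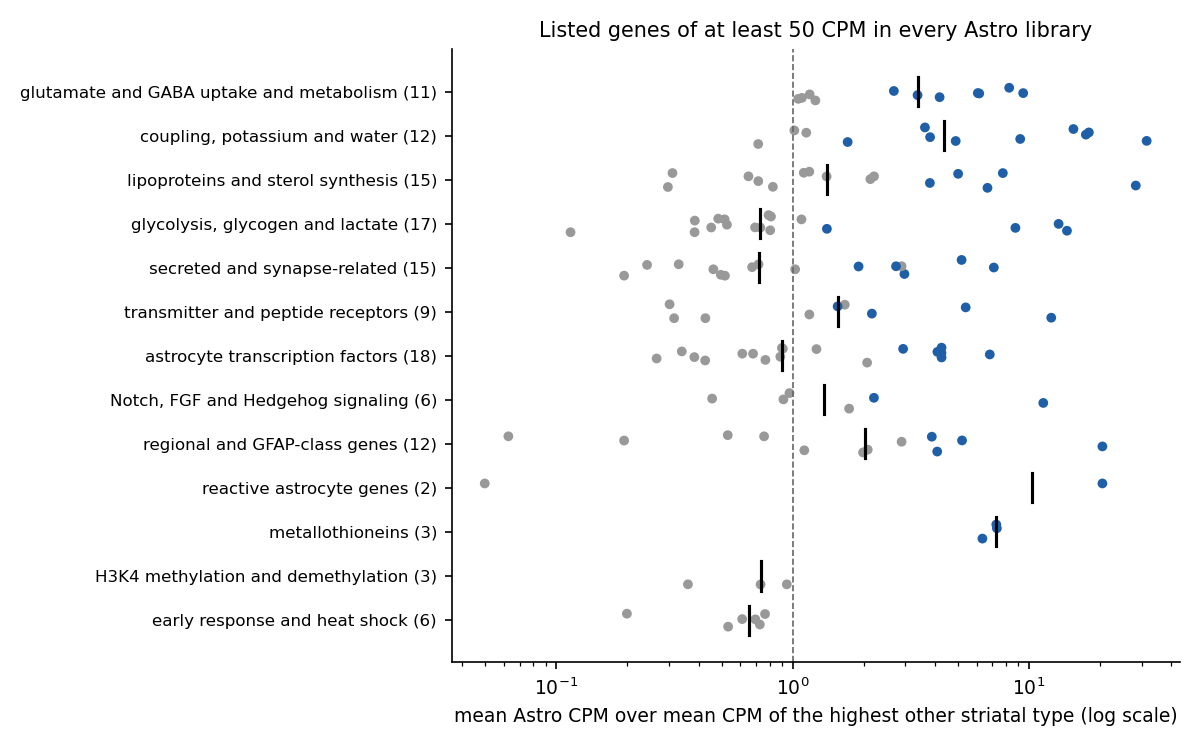
Ratio of the mean Astro level to the mean of the highest other striatal type, on a log axis, for the listed genes of at least 50 CPM in every Astro library; the number of such genes stands behind each list's name. Blue points are genes whose Astro libraries all lie above all libraries of all other types, bars are list medians, and the uptake, coupling and metallothionein lists lie mostly to the right of the dashed line at a ratio of 1.

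Variation between the Astro cells themselves was measured as the variance of Pearson residuals over cells, which is near 1 where a gene varies as counting alone would make it. Over the 795 cells with fewer than 2 ependymal markers and 1991 genes, the lowest of the 4 library variances had a median of 0.913 and a 95th percentile of 1.22. The 20 genes with the highest values held abundant transcripts (Malat1, Cst3, Actb, Apoe, Clu, Aldoc, Mt1, Mt2, Ptn, Dbi), 5 mitochondrial genes, Crym and Id3. Meg3, Tmsb10 and Calm2, which are neuronal or common transcripts, made up the rest. Meg3, Tmsb10, Calm2, Actb and the 5 mitochondrial genes had a higher mean level in cell-free barcodes than in Astro cells.

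Crym (chr7:120186380-120202111, GRCm38), which encodes mu-crystallin, a binding protein of thyroid hormone, had residual variances of 8.60, 6.15, 8.98 and 3.51. It had no UMI in 115 of 246, 81 of 204, 154 of 323 and 10 of 22 cells, or 46.7, 39.7, 47.7 and 45.5%, while 80, 68, 90 and 4 cells had 6 or more, with up to 33 in 1 cell. Aldoc, in the same cells, was without a UMI in 2 of 795. In the 3 larger libraries the cells with 6 or more Crym UMIs had medians of 1963.5, 2078 and 2071 UMIs and those with none 1785, 1983 and 1958.5. Crym was thus frequent in some cells and not found in others of similar depth, and its share of cells at 0 lay within 10 points in all 4 libraries.

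The levels of 100 listed genes of at least 100 CPM were then set side by side in cells with 6 or more and with no Crym UMI in these 3 libraries. In the cells with 6 or more, Pla2g7 was at 0.515, 0.414 and 0.619 times the level of the cells with no Crym UMI, Msmo1 at 0.412, 0.353 and 0.695 times, S100b at 0.663, 0.584 and 0.676 times and Ednrb, the endothelin B receptor, at 0.592, 0.701 and 0.699 times. Glud1, glutamate dehydrogenase, was higher, at 1.62, 1.45 and 1.33 times. These genes were picked after their values were seen, and the ratios are a description with no test. Id3, a helix-loop-helix inhibitor, also varied, with no UMI in 112, 62, 100 and 8 cells and 6 to 20 in 20, 20, 61 and 1.

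**Figure D4:**
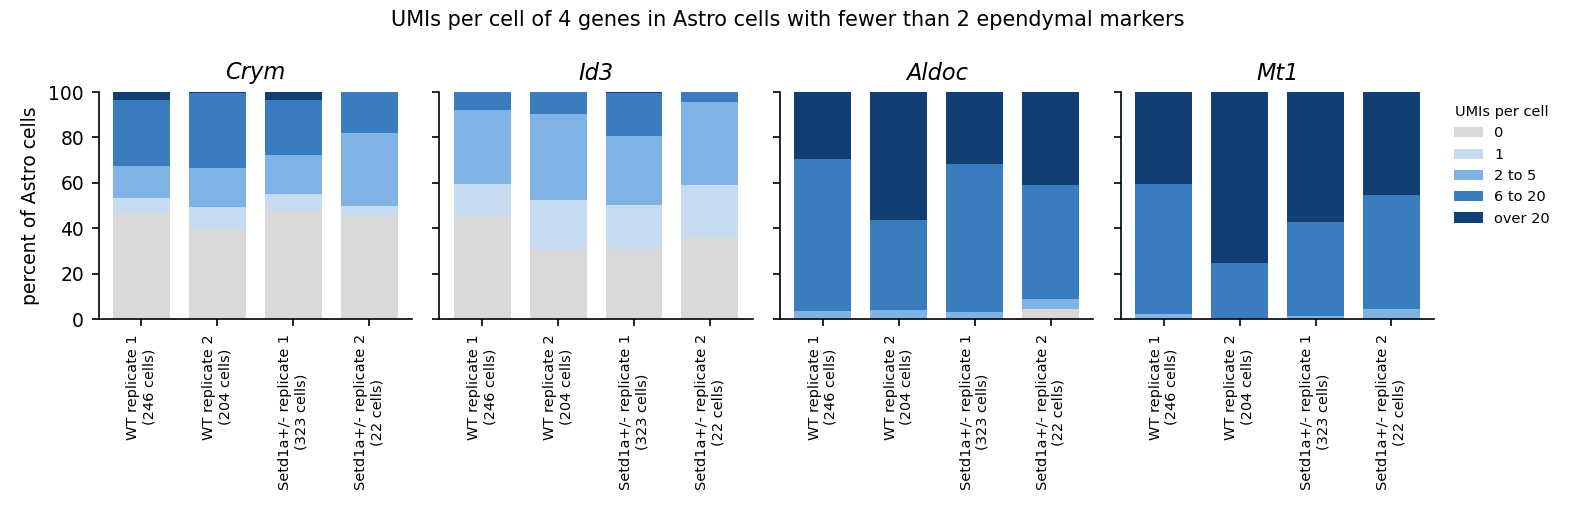
Share of Astro cells with fewer than 2 ependymal markers that hold 0, 1, 2 to 5, 6 to 20 or over 20 UMIs of Crym, Id3, Aldoc and Mt1, in each library, with the number of cells under the bars. Crym has none in 39.7 to 47.7% of cells and 6 or more in many others, while Aldoc and Mt1 are found in nearly every cell.

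Between genotypes no gene was called in the Astro sums of all 4 libraries with low counts filtered and no replicate block. With edgeR's quasi-likelihood test on 2 libraries against 2, 0 of 7009 genes (0%) passed an FDR under 0.05 with a fold change above 2, and DESeq2 called 0 as well. In edgeR 309 genes had an unadjusted p under 0.05 (4.41%), and in DESeq2 115. Of the 309, 249 were higher in Setd1a+/- (3.55%) and 60 lower (0.856%). Without the cells with ependymal markers 0 of 5491 were called (0%) and 77 had such a p (1.4%), 31 higher (0.565%) and 46 lower (0.838%). When the replicate number was added as a block, 5 of 7009 genes (0.0713%) were called, all higher: Hbb-bs (edgeR FDR 9.1e-06), Anxa11 (FDR 0.0278), Rdh10 (FDR 0.0320), Cald1 (FDR 0.0391) and Klf4 (FDR 0.0391). Rdh10, a retinol dehydrogenase, had 3, 6, 32 and 10 UMIs, and Cald1, the actin-binding caldesmon, was at 117, 36.7, 173 and 425 CPM. Both were higher in the cells with ependymal markers, at 102 against 6.61 CPM and 628 against 20.4 CPM. Without the hemoglobin-rich cell described below the blocked fit called 0.

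The 10 genes with the smallest p among the higher ones were not called in the fit with a filter on low counts and no block. With no filter 5 of them were, at edgeR FDRs of 0.0114 (Anxa11 and Klf4), 0.0215 (Acta2), 0.0227 (Sncg) and 0.0400 (Irs2), the first 4 also without the hemoglobin-rich cell. Each of the 10 was more than 2 times higher in the cells with ependymal markers than in the other Astro cells. Of all 7009 genes tested, 29.2% were more than 2 times higher there. Anxa11, an annexin (chr14:25842156-25886804, GRCm38), had 16, 10, 90 and 14 UMIs or 27.5, 20.4, 101 and 149 CPM, a log2 fold change of 2.18 ± 0.37 (SE, edgeR, FDR 0.919). Its level in the cells with ependymal markers was 45.9 times that in the others. Mia was at 39.5, 30.6, 106 and 170 CPM (log2 fold change 1.75 ± 0.36, FDR 0.919) and Txnip, an inhibitor of thioredoxin, at 60.1, 34.6, 126 and 234 CPM (1.67 ± 0.40, FDR 0.919).

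Tmem212 itself, 1 of the 4 ependymal markers, was among them, at 175, 116, 317 and 542 CPM (1.39 ± 0.34, FDR 0.919). Acta2, the smooth muscle actin (5, 3, 45 and 5 UMIs), Sncg, gamma-synuclein (3, 4, 41 and 5 UMIs), Klf4, a zinc finger factor (3, 0, 29 and 5 UMIs), Ankrd45 (8, 5, 42 and 7 UMIs), Irs2, an insulin receptor substrate (11, 3, 48 and 10 UMIs), and Rbpms, an RNA-binding protein (3, 2, 25 and 4 UMIs), completed the 10. None of the 10 passed the filter on low counts once the cells with ependymal markers were left out, nor did most of the 249 higher genes with an unadjusted p under 0.05, of which 74 passed. Their higher level in those cells is therefore a description, and the part of those cells in the genotype differences was not tested.

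The 10 genes with the smallest p among the lower ones were not called in the fit with the filter and no block either, and with no filter Rasgef1a alone was. Gm9925 was at 68.7, 59.1, 13.5 and 21.2 CPM, a log2 fold change of -2.15 ± 0.44 (FDR 0.919) and of -2.28 without the cells with ependymal markers, where it was called with the replicate block (-2.43 ± 0.56, edgeR FDR 0.0450) but not once the hemoglobin-rich cell was out as well (-2.43, FDR 0.189). Rasgef1a, an exchange factor of Ras-like proteins, was at 30.9, 42.8, 1.13 and 21.2 CPM (-3.40 ± 0.89, FDR 0.919, and -3.42, FDR 0.0215, with no filter, where it was called without the hemoglobin-rich cell too), and Cox5a, a subunit of cytochrome c oxidase, at 354, 344, 187 and 212 CPM (-0.90 ± 0.29, FDR 0.919). Cdk5, a kinase of neurons, was at 68.7, 83.6, 34.9 and 31.9 CPM (-1.18 ± 0.36, FDR 0.919). For 5 of the 10 every Astro library lay below the mean cell-free level, which was 162 CPM for Rasgef1a, 403 for Cox5a, 127 for Cdk5, 99.7 for Reep2 and 242 for Nrsn2. Reep2, Tmem9b, Fam228b, Mzt1, Isoc2b and Nrsn2 made up the rest, with log2 fold changes between -2.18 and -1.08. In all 20 genes named by p the groups did not overlap, as they did not in 22.9% of all genes in the higher and 17.9% in the lower direction (11.4 and 17.6% without the cells with ependymal markers). Without those cells the groups were still apart for 1 of the 10 higher genes, Irs2. They were apart for 8 of the 10 lower ones, all but Rasgef1a and Nrsn2. These counts cannot be set against each other, since all 10 lower genes but 0 of the higher ones passed the filter on low counts there. Acta2 and Sncg had no UMI left and could not be apart.

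**Figure D5:**
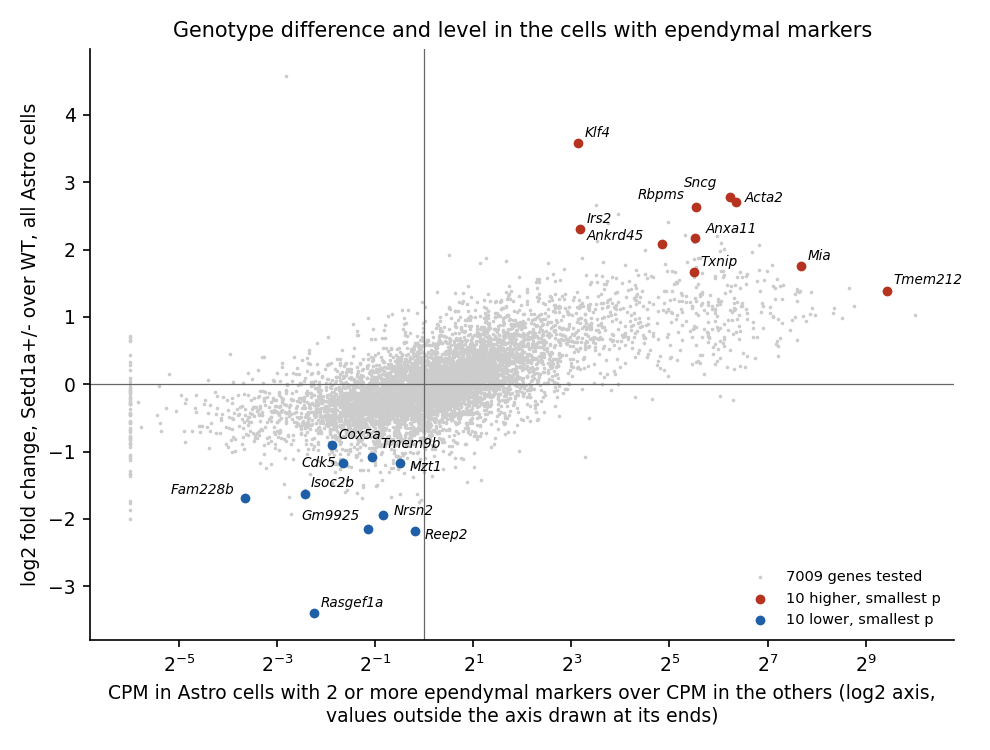
Log2 fold change between genotypes over all Astro cells (vertical axis) against the ratio of the level in cells with 2 or more ependymal markers to that in the other Astro cells (horizontal axis, log2) for the 7009 genes tested; where the others held fewer than 3 UMIs, the ratio was set at 3 UMIs. The 10 higher genes with the smallest p lie at ratios of 8.85 to 695 and the 10 lower ones at 0.0801 to 0.874. The median ratio of the 7009 genes is 1.13.

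In the Astro cells with fewer than 2 ependymal markers, the higher genes with the smallest p beside Hbb-bs were Ptbp1, a splicing regulator (14.5, 15.5, 43.1 and 37.6 CPM, log2 fold change 1.53 ± 0.51, edgeR FDR 0.999), Hsd11b1, which regenerates active glucocorticoid (37.2, 39.8, 89.1 and 37.6 CPM, 1.11 ± 0.38), and Purb, a nucleic acid-binding protein (37.2, 26.5, 60.9 and 151 CPM, 1.23 ± 0.43). Beside Gm9925, the lower genes with the smallest p included Reep2, which shapes the endoplasmic reticulum (39.2, 28.7, 2.97 and 0 CPM), and Cartpt, the CART neuropeptide (61.9, 70.7, 16.3 and 56.4 CPM, -1.66 ± 0.46, FDR 0.999). The groups of Hsd11b1 overlapped, and 1 UMI was worth 18.8 CPM in the 22 cells of Setd1a+/- replicate 2.

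Most list medians also moved when these cells were left out. Without the block and with the filter on low counts, no member of any list was called, with or without the cells. Klf4, in the early response list, was called with the block, and it and the mural marker Acta2 with no filter. The medians that follow are read beside a median log2 fold change of -0.03 over all genes tested, and -0.02 without the cells. Over 23 lipoprotein and sterol genes the median was -0.56 and moved to -0.24 without the cells, and 4 of 23 were above 0 in either case. Over the 12 astrocyte markers it moved from -0.41 to -0.12, over 16 receptors (15 without the cells) from -0.46 to -0.11, over 20 glycolysis genes (19) from -0.31 to -0.13 and over 15 uptake genes from -0.21 to -0.14. Over 19 early response and heat shock genes the median was 0.58, and over the 15 tested without the cells -0.12. Over 14 genes of H3K4 methylation and demethylation, the family of Setd1a, it was 0.26, and 0.03 over 11. Over 27 transcription factors (25) it was 0.07 and 0.08.

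For the remaining lists the medians are given in the same way. Over 15 coupling genes (14) the median went from -0.23 to -0.08, over 24 secreted proteins (23) from -0.34 to -0.11 and over the 3 metallothioneins from -0.31 to -0.15. Over 14 Notch, FGF and Hedgehog genes (13) it was 0.02 (-0.03 by DESeq2) and 0.09, over 17 regional genes (15) 0.07 and -0.03 and over 7 reactive genes 0.07 and 0.12. Over the 4 ependymal markers tested in all cells it was 1.09, with 1 left to test at -0.17 without those cells, and over 6 MSN markers, whose summed level was higher in the cell-free barcodes than in Astro, -0.68 and -0.43.

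Apoe, the lipoprotein gene given above, was at 11146, 13968, 10077 and 5061 CPM once the cells with ependymal markers were left out, and Crym at 2370, 1745, 2083 and 1110 CPM. Aldoc was at 8728, 10062, 8597 and 7545 CPM in the same cells. Each of the 3 stayed lowest in Setd1a+/- replicate 2, which had 22 such cells.

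In 1 library the hemoglobin transcripts rested on 1 cell. Setd1a+/- replicate 2 had 747 hemoglobin UMIs in its Astro cells, and 741 of them lay in 1 cell with 2263 UMIs, 6 of the 12 astrocyte markers and no ependymal marker. The summed level of Hbb-bs, Hbb-bt, Hba-a1 and Hba-a2 was 41.2, 114, 72.1 and 7932 CPM, and 65.3 CPM in that library without that cell. Cell-free barcodes held 706, 1645, 1890 and 977 CPM. The 4 genes were the ones called when any library but Setd1a+/- replicate 2 was left out (4 calls each time) and 4 of the 11 called with no filter on low counts (0.0701% of 15688 genes), with Klf4, Anxa11, Acta2, Sncg, Emp1, Irs2 and, lower, Rasgef1a as the others. Without the cell, 0 genes were called in each of those fits with a filter and 5 with none.

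The difference of the genotype effect between astrocytes and another type was tested for 3 types. Against OPC, 0 of 9200 genes passed an FDR under 0.05 in edgeR's test of the interaction (0%, with 390 at an unadjusted p under 0.05). Against Endo 14 of 9909 passed (0.141%) and against D2 MSNs 6 of 10758 (0.0558%). The 4 hemoglobin genes were among both. Against Endo, Anxa11 followed them, with a log2 difference of 2.30 ± 0.44 (edgeR FDR 0.00044), at 64.6, 67.1, 63.4 and 45.5 CPM in Endo. Against D2 MSNs, Rasgef1a followed, with -3.45 ± 0.78 (edgeR FDR 0.0193), at 254, 218, 230 and 173 CPM in D2 MSNs.

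Without the hemoglobin-rich cell 3, 6 and 3 genes passed against OPC, Endo and D2 MSNs. Without that cell and without the cells with ependymal markers 0, 0 and 1 passed, the last being Hbb-bs, which in D2 MSNs was at 569, 682, 55.5 and 40.0 CPM. The size of the differences changed unequally. Rasgef1a against D2 MSNs was at -3.07 ± 0.81 (edgeR FDR 0.296) without both kinds of cells. Against Endo, Cartpt was then at -1.96 ± 0.53, Mbp at -1.53 ± 0.43 and Mobp at -1.70 ± 0.56, and none of them passed. In all Astro cells they were at -2.0, -1.76 and -2.23. Gas6 was at -0.01 and Anxa11 at 1.30 ± 1.00 without both kinds of cells, against 1.73 and 2.30. The level of Mobp in Endo itself was 41.7, 19.7, 122 and 5.46 CPM.

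The share of Astro cells among annotated striatal cells was 5.92% (95% Wilson interval 5.25 to 6.66), 5.30% (4.65 to 6.03), 9.33% (8.44 to 10.3) and 1.24% (0.877 to 1.76). The intervals cover counting error alone. WT libraries averaged 5.61 ± 0.437% (SD, n = 2) and Setd1a+/- libraries 5.29 ± 5.72% (SD, n = 2). The 2 Setd1a+/- libraries lay on either side of both WT libraries, and the difference of -0.322 points gave p = 1.0 when the 4 libraries were permuted exactly and both tails counted, where 2 libraries against 2 cannot go below 0.333. edgeR's test of cell numbers over the 10 types gave a log2 fold change of -0.08 ± 0.87 (FDR 0.992), and -0.68 with the replicate block (FDR 0.912). The sign rested on 1 library each way: the difference was -4.36 points without Setd1a+/- replicate 1 (edgeR FDR 0.0035) and 3.72 points without Setd1a+/- replicate 2 (edgeR FDR 0.149). In both fits, and in the same kind of fit below, the 1 Setd1a+/- library left is assumed to vary like the WT libraries, and such an FDR has no replicate check of its own. Among non-neuronal cells the share was 11.2, 12.2, 14.0 and 6.25%.

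Cells with ependymal markers were 0.275% (0.158 to 0.480), 0.248% (0.135 to 0.455), 0.817% (0.576 to 1.16) and 0.361% (0.190 to 0.684) of the annotated cells. Both Setd1a+/- libraries were above both WT libraries (0.261 ± 0.0195% and 0.589 ± 0.323%, SD, n = 2), with p = 0.333, the smallest the exact test allows, and edgeR gave a log2 fold change of 1.18 ± 0.95 (FDR 0.992), which without Setd1a+/- replicate 2 had an FDR of 0.036. Neural stem cells and neuroblasts (NB), annotated together and also found along the ventricle, made up 2.41, 1.56, 5.64 and 2.20% of the annotated cells. The part of the dissection in these shares was not tested.

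Astrocyte levels also differed between the replicates of both genotypes. These genes were picked by size and are given as values with no test. Dio2, the deiodinase that activates thyroid hormone, was at 156, 51.0, 121 and 10.6 CPM, Dclk1, a doublecortin-like kinase, at 1525, 618, 1344 and 329 CPM, and Kcnn2, a calcium-activated potassium channel, at 79.0, 36.7, 65.3 and 21.2 CPM. All 3 were highest in Astro among the striatal types and more than 2 times higher in replicate 1 in both genotypes. Setd1a+/- replicate 2 held 1 UMI of Dio2, 31 of Dclk1 and 2 of Kcnn2. Its levels of Dio2 and Kcnn2 thus lie under the 31.9 CPM that a count of 0 allows there. Of the genes that stood higher in replicate 2, the predicted gene Gm8797 had the highest ratio (18.9, 167, 19.2 and 169.9 CPM), and its level in the cell-free barcodes was also higher there (37.9, 369.6, 25.4 and 344 CPM). Ociad2 came next (8.58, 51.0, 15.8 and 63.7 CPM), and genes of neurons such as Snap25 (67.0, 263, 45.1 and 297 CPM) and Tac1 (105, 340, 46.2 and 191 CPM) were among the others. The cell-free levels of Snap25 were 1341, 1386, 1085 and 1369 CPM.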

How the data were processed

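The authors aligned the reads with Cell Ranger 3.0.2 to mm10 and deposited raw UMI counts per gene and barcode for each library (31053 genes). Their deposited annotation, made with Seurat 3.2.0, gives each kept cell a library and a cell type; per the methods, cells with fewer than 800 genes or a high mitochondrial share had been removed. How doublets were treated was not given in the sources used here, and no doublet caller was run. Pooled mice and droplet counting mean that the intervals cover counting error only.

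Astro cells were joined to the counts by library and barcode, and their counts were summed per library. The 4 striatal libraries held 24125835, 26277553, 21694149 and 17440876 UMIs over all barcodes. For the genotype comparison the sums were scaled by TMM, genes were kept by filterByExpr at its default minimum of 10, and edgeR's quasi-likelihood F-test (version 4.0.16, in R 4.3.3) was run on them. A gene was called where its Benjamini-Hochberg FDR was under 0.05 and its fold change above 2. DESeq2 1.42.0 was an alternative. The study's own test treats cells as replicates and was not run. Interactions with OPC, Endo and D2 MSNs were fitted with the same scaling and test on the sums of both types, with the library as a block. The groups held 2 libraries each, and edgeR moderates the spread between such pools over genes. In the interactions and in the fit with no filter, a gene's own spread hardly entered. The p-values there rest on a spread shared over genes. Per the methods a replicate held 1 WT and 1 mutant library, and on that basis the numbers were taken to pair the libraries; a shared preparation is not stated. The correlation of the replicate differences of the genotypes was 0.0973 over 7009 genes, and 0.235 over 5491 genes without the cells with ependymal markers.

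The code was tested on simulated data. Genes were named by rule: the 30 with the highest ratio to the next type, the 20 with the highest lowest-library variance, the 10 with the smallest p in each direction, the 5 per interaction with the smallest p, and listed genes. Some genes that are in these counts are not reported here by name. The cells, markers and lists were chosen with earlier results of these data known. The splits by ependymal markers, by hemoglobin (over 50 UMIs in a cell) and by Crym were added after the values were seen. Coordinates are from GENCODE (GRCm38). Python 3.11.15, numpy 2.4.6, scipy 1.17.1, pandas 2.3.3 and matplotlib 3.10.9 made the tables and figures.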

Additional observations from a re-analysis of the deposited data

Results flagged for a closer look

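The genotype difference of astrocytes differed from that of another striatal type by edgeR's test of the interaction for 20 pairs of gene and type, given here as log2 differences (astrocytes minus the other type). Against D2 MSNs the hemoglobin genes Hba-a2 (10.06), Hba-a1 (10.13), Hbb-bt (12.07) and Hbb-bs (6.67) differed, as did Rasgef1a (-3.45) and Myb (2.42). Against Endo the same 4 hemoglobin genes differed, at 4.93 for Hba-a2, 4.81 for Hba-a1, 7.10 for Hbb-bt and 3.32 for Hbb-bs. The other differences against Endo were Anxa11 (2.30), Sncg (3.00), Gas6 (1.73), Klf4 (3.38), Ivns1abp (1.43), Odc1 (1.57) and Cd24a (1.52), in the positive direction, and the oligodendrocyte genes Mbp (-1.76) and Mobp (-2.23) and the neuropeptide gene Cartpt (-2.0), in the negative one. The genes past the 5 with the smallest p per type are named because the test called them.

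In D2 MSNs the hemoglobin genes were themselves lower in both Setd1a+/- libraries, and in astrocytes they rested on 1 cell of Setd1a+/- replicate 2. Gas6 was at 73.8, 63.2, 144 and 265 CPM in Astro and at 79.1, 70.4, 55.1 and 49.2 CPM in Endo, in the order WT replicates 1 and 2, Setd1a+/- replicates 1 and 2. Mbp was at 139, 147, 99.1 and 63.7 CPM in Astro and at 144, 95.4, 331 and 51.0 CPM in Endo. Without the hemoglobin-rich cell and the cells with ependymal markers, Hbb-bs against D2 MSNs alone passed among these 20, at 3.57. Rasgef1a was at -3.07 and Cartpt at -1.96, about as large as before, while Gas6 was at -0.01. Against Endo, Cd24a was at 0.14, Odc1 at 0.41, Ivns1abp at 0.50 and Sncg, with no UMI left in Astro, at 0.22. Klf4 was at 2.37, Anxa11 at 1.30, Mbp at -1.53 and Mobp at -1.70. Against D2 MSNs, Myb was at 0.20.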

How the results depend on the processing

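The number of genes called between genotypes was 0. It was 11 with no filter on low counts, 5 with the replicate block and 1 without cells holding UMIs of 2 or more genes of another class, and it ranged from 0 to 4 when each library was left out in turn. Without the cells with ependymal markers it was 2 with the block (Hbb-bs and Gm9925) and 4 to 37 with a library left out. Without the hemoglobin-rich cell it was 5 with no filter and 0 for every library left out, and without both kinds of cells it was 0 to 36 with a library left out. In those fits 1 arm has 1 library, whose spread is taken from the other group. Of the last, 34 genes were called without Setd1a+/- replicate 1, which leaves Setd1a+/- replicate 2 alone in that arm (Apoe, Clu and Mfge8 among the lower ones), and 36 without Setd1a+/- replicate 2 (Tac1, Meg3 and Snap25 among the lower ones). The cause of these counts was not tested.

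The interaction with OPC gave 0 genes, and 10 when scaled by library size, 3 with no filter, 3 without the cells with ependymal markers, 3 without the hemoglobin-rich cell and 0 to 98 with a library left out. With Endo it gave 14, and 31, 7, 4, 6 and 2 to 27 in the same order, and 0 without both kinds of cells. With D2 MSNs it gave 6, and 3 without the hemoglobin-rich cell, 1 without both and 4 to 145 with a library left out. The highest counts against OPC and D2 MSNs came without Setd1a+/- replicate 1, and against Endo the lowest came without WT replicate 2 and the highest without Setd1a+/- replicate 2.

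The difference in the Astro share was -4.36 to 3.72 points with a library left out, turning positive without Setd1a+/- replicate 2, and that in the share of cells with ependymal markers was 0.0993 to 0.555 points. The number of astrocyte markers highest in Astro (11) and the median ratio of the 30 genes kept their values within the spread of replicates under each alternative. None of the 20 genes named by p changed sign in the alternatives that tested it. They were picked by p and their groups did not overlap, so a change of sign with a library left out was hardly possible. With the filter on low counts, 0 of the 10 higher ones were tested without the cells with ependymal markers. Of the list medians, 12 of 20 changed sign under at least 1 alternative (26 of 246 values, 16 of them with a library left out). Without the cells with ependymal markers the early response median went from 0.58 to -0.12, the regional one from 0.07 to -0.03 and that of 3 oligodendrocyte markers from -0.56 to 0.05. The MSN marker median went from -0.68 to 0.31 without WT replicate 2 and 0.16 without Setd1a+/- replicate 1. DESeq2 turned the medians of Notch, FGF and Hedgehog genes (0.02 to -0.03), endothelial markers (0.20 to -0.23) and interneuron markers (0.14 to -0.11).

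Depth limits the Astro sums most in Setd1a+/- replicate 2, where 31 cells gave 94178 UMIs. Thinned to the depth of that library, 1648 genes could be tested and 0 were called. The replicate block changed the call of neither share.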
